A study of Capra hircus with 6 samples.

Results

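The subject is a stretch of goat chromosome 23, from 17 to 22 Mb, in a table of genome regions whose chromatin accessibility differed between the dry and the lactating mammary gland. Its members are all listed regions with their centre in that stretch, whatever their p, leaving out those with a centre within 1000 bp of a tRNA gene end. They number 217 of the 30714 regions in the table, and the rule left out 108 more of the stretch. The members were selected on position and on the listing itself (p under 0.001), and the stretch was picked with its high count of regions known, so they were chosen by position and by the same contrast that the values below come from. These values are descriptions, and no test was made on them.

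Accessibility was measured with ATAC-seq, a method that lets a transposase, Tn5, insert adapters into open DNA, on mammary epithelial cells (the labels' term) of *Capra hircus*, 50000 cells a library. The lactation group has 3 libraries (replicates 1, 2 and 5) and the dry period group, when the gland makes no milk, has 3 (replicates 1, 2 and 3). The labels give no breed, age or animal for a library, and a table of differing regions alone cannot show whether markers of mammary epithelium are open. For the whole comparison a region carries a single fold change, with its p-value and FDR, the false discovery rate. No value per library was used here, so no spread between replicates can be given, and depth per library is unknown. If the authors' p-values rest on the spread between libraries, that spread may be technical, since nothing says that the libraries came from separate goats.

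The names of the regions fall into 2 sets, called set 1 and set 2 here, and fold changes lie above 1 in both. Each set is read here as the regions more open in 1 of the periods. Which period belongs to which set is stated neither in the table nor in the labels, although the table's title lists the dry period libraries ahead of the lactation ones, so every direction is given by set.

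In human the same order of genes holds the largest cluster of replication-dependent histone genes, a large cluster of tRNA genes, a run of SCAN and KRAB zinc finger genes, olfactory receptor genes and then the major histocompatibility complex (MHC), whose class I genes show peptides to T cells. Histone genes of this kind are short, lack introns and are transcribed in the S phase of the cell cycle, and tRNA genes are transcribed by RNA polymerase III. In the gene table used here, RefSeq for the assembly ARS1.2, 213 protein-coding genes overlap the stretch, of which 63 have a name and 150 only a LOC identifier. The stretch also holds 169 tRNA genes. No histone, olfactory receptor or MHC class I or II gene is named as such there, so those words of the working description could not be checked. The named genes *SLC17A1* to *SLC17A4*, *HFE*, the butyrophilins, the zinc finger genes, *GABBR1* and *FLOT1* follow each other as on the human chromosome.

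Nearly all members belonged to set 1. Of the 217 members, 206 (94.9%) fell into set 1 and 11 into set 2. The 95% Wilson interval of that percentage, for counting error alone, ran from 91.2% to 97.1%. By comparison, 74.5% of all listed regions were in set 1, and over the other 786 listed regions of chromosome 23 the share was 75.4% (72.3% to 78.3%). All 108 regions left out at tRNA genes were in set 1. From 17 to 18 Mb 12 of 16 members were in set 1. The share in set 1 is also high near genes elsewhere. On the rest of chromosomes 1 to 29, 7882 of 8841 listed regions within 3000 bp of a protein-coding gene end were in set 1. Of the members that near, 127 of 133 were. A surplus of set 1 was among the features known when the stretch was picked.

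An FDR under 0.05 in the authors' deposited table was reached by 97 members (44.7%), against 27.8% of all listed regions. By set, 95 of 206 set 1 members (46.1%) reached it, against 34.2% of set 1 regions in the whole table, and 2 of 11 set 2 members, against 9.23% of set 2 regions. The p behind that FDR is not the same in the sets: according to the authors' deposited table the largest p under an FDR of 0.05 was 6.21e-05 in set 1 and 5.63e-06 in set 2.

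Fold changes were near those of the rest of the table. Wide regions were more frequent at tRNA genes of the stretch and among the members, mainly those from 18 to 19 Mb. The set 1 members had a median fold change of 2.40 according to the authors' deposited table (interquartile range 1.85 to 3.21), against 2.39 (1.87 to 3.23) for the other set 1 regions. Members of 800 bp or more made up 10.6% (23 of 217), against 2.39% of the rest of the table (728 of 30497) and 2.29% of the rest of chromosome 23. Of these 23, 19 were among the 109 members from 18 to 19 Mb. In the next 2.1 Mb 1 of 13 members was that wide, and in the last 0.9 Mb 3 of 79 were. Of the 108 regions left out at tRNA genes, 14 (13.0%) were that wide. The median width was 300 bp in the members and 300 bp in the rest of the table. Over the 206 set 1 members a smaller p went with a wider region (Spearman's rho = -0.77 between width and p), while fold change and p were hardly related (rho = 0.05). These members come from the same libraries and the p of a region depends on its reads, so the values are descriptions.

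**Figure D1:**
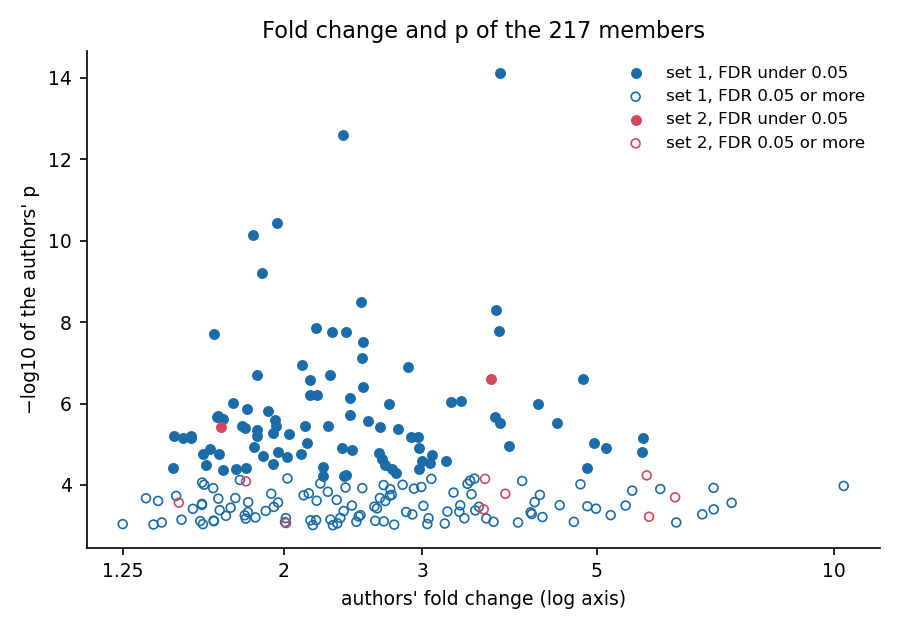
Authors' fold change (log axis) and −log10 of the authors' p of the 217 members, with set 1 in blue, set 2 in red, and open points for an FDR of 0.05 or more. The 10 members with the smallest p have fold changes between 1.83 and 3.76, and the highest fold change, 10.3, belongs to an open point.

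Members lay close together, in 2 blocks. The median distance between the centres of neighbouring members was 4200 bp, against 21800 bp between neighbours in the rest of the table, and 36.1% were at most 2000 bp, against 15.7%. The regions left out at tRNA genes lay as close to each other, with a median of 3750 bp and 37.4% at most 2000 bp. From 18 to 19 Mb there were 109 members, 107 of set 1 and 2 of set 2. That 1 Mb window held the most listed regions of 2125 windows with any, over chromosomes 1 to 29, also with regions at tRNA genes left out on every chromosome; the median window held 10. With the regions at tRNA genes counted, the same window held 186. From 21 to 22 Mb there were 80 members, 77 of set 1 and 3 of set 2, which ranked 7 among the same windows.

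Between the blocks members were sparse, in part because the rule left out regions at tRNA genes there. From 19 to 20 Mb there were 10 members, and with the 31 regions at tRNA genes counted the window held 41 listed regions, rank 108 of 2126 windows. From 19 to 21.1 Mb, bounds drawn after the values were seen, there were 13 members in 2.1 Mb, and 4 of them had an FDR under 0.05. This interval holds 100 protein-coding genes, of which 4 had a member within 3000 bp of an end. The longest run without a member was 672 kb between centres, from the region at 19921601 to 19922200 (fold change of 2.52 according to the authors' deposited table, set 1) to that at 20594001 to 20594700 (1.67, set 2). From 17 to 18 Mb there were 16 members, 12 of set 1 and 4 of set 2, of which 1 had an FDR under 0.05. In all, 16 of the 50 bins of 100 kb held no member, and the fullest bin, from 18.2 to 18.3 Mb, held 39.

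**Figure D2:**
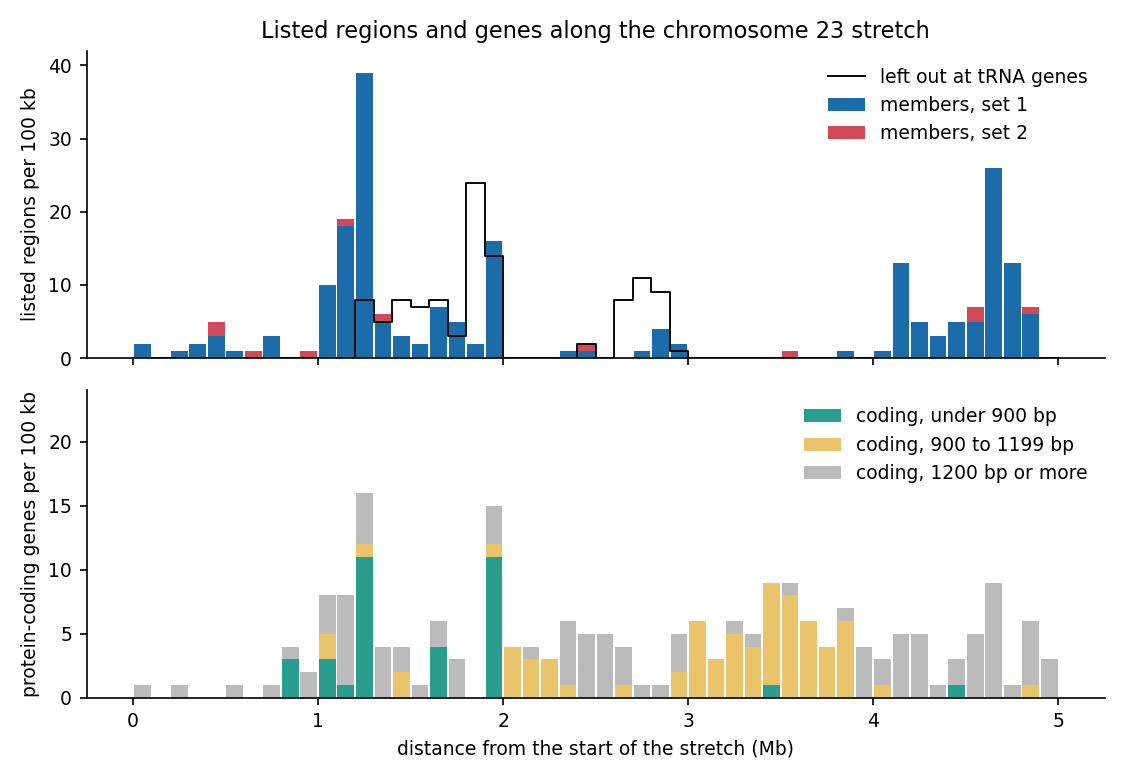
Members per 100 kb by set (top, bars), regions left out at tRNA genes (top, black line) and protein-coding genes by length (bottom), by distance from the start of the stretch in Mb. Bars of members cluster at 1 to 2 Mb, where genes under 900 bp are grouped, and at 4.1 to 4.9 Mb, and are nearly absent over the run of genes from 900 to under 1200 bp at 3 to 4 Mb.

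The block from 18 to 19 Mb holds most of the shortest genes of the stretch. Of the 35 protein-coding genes under 900 bp, 30 lie in this block, none with a name, and 29 of those 30 had a member within 3000 bp of an end. Of these, 28 had one with an FDR under 0.05. The length limit was set after the values were seen. Over all 35 genes under 900 bp of the stretch the share with a member was 82.9%, against 15.7% of 313 genes of that length elsewhere on chromosomes 1 to 29 (49 genes), counted by the same rule. For genes of every length the share was 39.9% in the stretch (85 of 213), near the 36.3% of all 19063 protein-coding genes, and with an FDR under 0.05 it was 31.0% (66 of 213), against 14.3% of all.

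Gene length and position in the stretch cannot be told apart in these counts. In the same block 4 of 6 genes from 900 to under 1200 bp and 21 of 29 genes of 1200 bp or more also had a member, and 54 of its 65 genes of every length did. Of the 5 short genes outside it, 3 before 18 Mb, 1 from 19 to 21.1 Mb and 1 beyond, none had one.

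Most genes from 900 to under 1200 bp lie in the sparse interval. Of 72 genes from 900 to under 1200 bp in the stretch, 65 lie from 19 to 21.1 Mb, and there 1 of the 65 had a member. Over all 72 the share was 6.94% (5 genes), against 4.41% of 1020 genes of that length elsewhere. Genes of 1200 bp or more had a member in 48.1% of cases in the stretch (51 of 106), against 38.5% elsewhere. The gene table gives no role to these unnamed short genes. How the authors treated reads that match several near-identical gene copies was not given in the sources used here, so values at neighbouring short genes are uncertain if these genes are such copies.

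**Figure D3:**
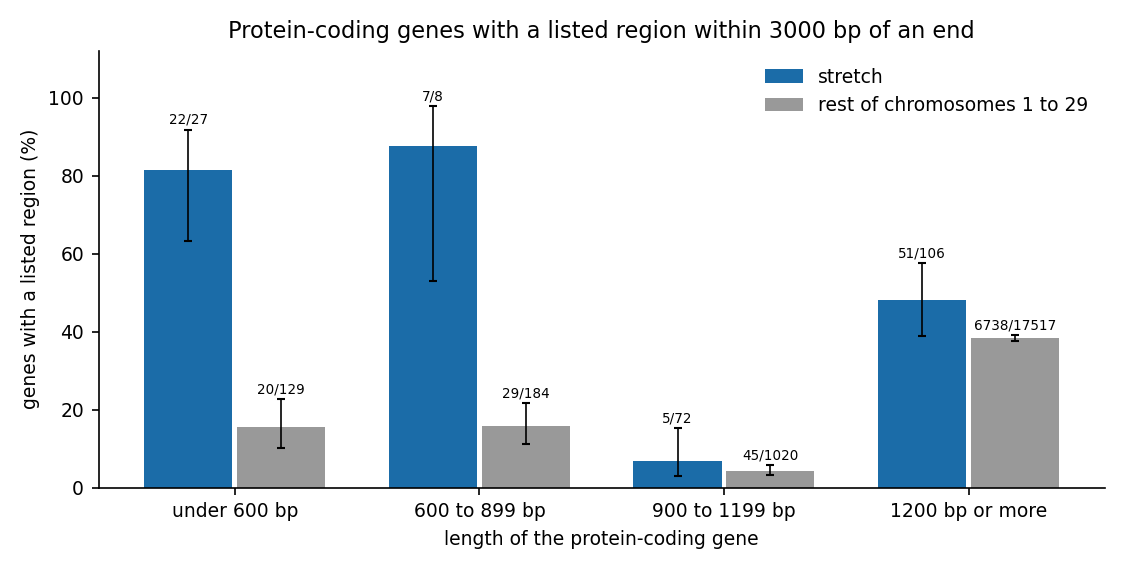
Share of protein-coding genes with a listed region within 3000 bp of an end, by gene length, in the stretch (blue) and on the rest of chromosomes 1 to 29 (grey), with 95% Wilson intervals that cover counting error only and the gene counts above the bars. The stretch is far above the rest for genes under 900 bp, at 22 of 27 and 7 of 8, and close to it from 900 to under 1200 bp; 30 of its 35 genes under 900 bp lie from 18 to 19 Mb.

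Members lay near the ends of the short genes. The 35 genes have a median length of 486 bp, so any centre inside them is near an end. The 28 short genes with an FDR under 0.05 share 21 different nearest members of that kind, all in set 1, since neighbouring genes are often served by 1 region. Their fold changes according to the authors' deposited table ran from 1.45 to 4.21 with a median of 2.37, and their widths from 300 to 1400 bp with a median of 700 bp. The centre lay a median of 346 bp from the gene end, and within 500 bp for 20 of the 28 genes. With genes this short, the distance cannot tell a region at an end from one over the whole gene. Of the 35 short genes, 24 had 3 or more members within 3000 bp. *LOC108633412* had the most, 6, of which 4 had an FDR under 0.05, and its nearest passing member, at 18275801 to 18276200, had a fold change of 3.71 according to the authors' deposited table (FDR = 0.00517).

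Among the 57 members within 3000 bp of an end of a gene under 900 bp, all were in set 1 and 38 (66.7%) had an FDR under 0.05. Among the 76 members near other protein-coding genes, 35 (46.1%) did, and 6 were in set 2. Of the 84 members farther from gene ends, 24 (28.6%) had an FDR under 0.05. All 57 members near the short genes lie from 18 to 19 Mb, while the other groups are drawn from the whole stretch. In that block 67 of all 109 members (61.5%) had an FDR under 0.05 and 107 were in set 1. The higher share near short genes therefore cannot be told apart from position in the stretch. Median widths of the 57, 76 and 84 members were 500, 300 and 200 bp, against 400 bp in that block. Their median fold changes according to the authors' deposited table were 2.43, 2.21 and 2.65. Counted per 250 bp of distance to the nearest end of a short gene, members near the short genes were densest at 0 to 250 bp, with 20, against 5 at 500 to 750 bp. Near the other genes the counts were 11 at 0 to 250 bp and 15 at 500 to 750 bp. The 2 groups are not alike in this measure, since a centre inside a gene under 900 bp is near an end in any case.

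**Figure D4:**
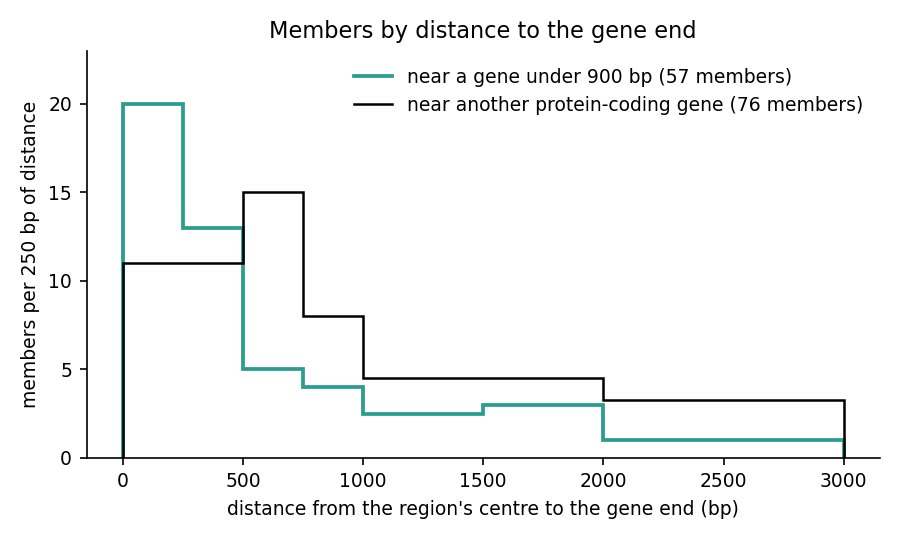
Members per 250 bp of distance from the centre of the region to a gene end. For the 57 members near a gene under 900 bp (green) it is the nearest end of such a gene. For the 76 members near other protein-coding genes (black) it is the nearest end of any protein-coding gene. The green line is highest at 0 to 250 bp and the black line at 500 to 750 bp. A centre inside a gene under 900 bp is near an end in any case.

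Over all members, 61.3% lay near a protein-coding gene, with no more than 3000 bp between the centre and a gene end (133 of 217, 95% Wilson interval 54.7% to 67.5%). On the rest of chromosomes 1 to 29 the share was 29.7%, and among its set 1 regions 35.7%. Gene density was not allowed for in this comparison. The stretch holds 213 of the 19063 protein-coding genes of chromosomes 1 to 29, 65 of them from 18 to 19 Mb. From 18 to 19 Mb 89 of 109 members lay near a gene end. In the next 2.1 Mb 4 of 13 did, and in the last 0.9 Mb 38 of 79. Of all listed regions of the stretch, 28.3% lay within 1000 bp of a gene end. A shift of 100 kb left 11.4% or 13.8%. The regions left out at tRNA genes in the stretch lay elsewhere: 8 of 108 (7.41%) were near a protein-coding gene end, and the median distance to one was 1541 bp for the members and 14977 bp for these regions. Members lay inside a protein-coding gene in 59.0% of cases, against 53.2% on the rest of chromosomes 1 to 29.

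The member with the smallest p lies outside the short-gene block, inside *ATAT1*, which encodes the enzyme that acetylates alpha-tubulin. At 21636601 to 21637500 it had a fold change of 3.76 according to the authors' deposited table (p = 7.74e-15, FDR = 9.70e-10, set 1). Next came a set 1 region 2391 bp from an end of *ZNF391*, a zinc finger gene, at 18758101 to 18758900, with a fold change of 2.38 according to the authors' deposited table (FDR = 1.86e-08). *POM121L2*, related by name to a nuclear pore protein, has a set 1 region 523 bp from an end, at 18718801 to 18719900, with a fold change of 1.83 according to the authors' deposited table (FDR = 2.08e-06). The centre of that region also lies 1331 bp from a tRNA gene end. The other 7 of the 10 smallest p are all in set 1, lie nearest to unnamed genes and fall between 18 and 19 Mb.

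Those 7 regions have widths from 500 to 1900 bp. The third smallest p belongs to 18980201 to 18981100, 85 bp from an end of *LOC106501755*, with a fold change of 1.96 according to the authors' deposited table (FDR = 1.18e-06). Next to it, the region at 18979201 to 18980100 had 2.51 according to the authors' deposited table (FDR = 4.09e-05), and the one at 18968301 to 18969200 had 3.72 (FDR = 5.92e-05). At the start of the block the widest member, 1900 bp at 18078401 to 18080300, had a fold change of 1.88 according to the authors' deposited table (FDR = 1.11e-05). Near it lies 18100701 to 18101300, with 3.76 according to the authors' deposited table (FDR = 0.000143), and the region at 18076301 to 18076800 had an FDR of 0.000123. The last of the 10, 18612501 to 18613700, had 2.31 according to the authors' deposited table (FDR = 0.000146) and lies 353 bp from an end of *LOC102178027*.

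Of the 12 named genes of this block, 3 had a passing member, *POM121L2*, *ZNF391* and *ZNF184*, against 14.3% of all protein-coding genes. *HFE*, which encodes a regulator of iron uptake, lies among the short genes nearer the start of the block and had members of both sets. A set 1 region of 200 bp at 18118701 to 18118900, 139 bp from an end of *HFE*, had the highest fold change of the stretch, 10.3 according to the authors' deposited table, but an FDR of 0.0699. A set 2 region inside *HFE* at 18125101 to 18125400 had 6.29 according to the authors' deposited table with an FDR of 0.410. Neither passed. On the *TRIM38* side of *HFE*, 61.5 kb with 8 unnamed protein-coding genes held 16 members, 9 of them with an FDR under 0.05. On the side of *BTN3A3*, 213 kb with 22 unnamed genes held 53 members, of which 32 had an FDR under 0.05 and none was in set 2.

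The butyrophilins, immunoglobulin-like membrane proteins, had no passing member. *BTN1A1*, which encodes the butyrophilin of the milk fat globule membrane, had 1 member within 3000 bp, a set 1 region at 18392501 to 18392700 with a fold change of 2.36 according to the authors' deposited table (FDR = 0.210). It lies 1039 bp from a tRNA gene end and is the member nearest to one. The next listed region, at 18393001 to 18393200, also lies within 3000 bp of that end of *BTN1A1* and did pass. It had a fold change of 2.08 according to the authors' deposited table (FDR = 0.00677, set 1), but the rule left it out at a tRNA gene. The lack of a passing member at *BTN1A1* therefore rests on that rule. *BTN2A2* had a set 2 region at 18373501 to 18373700 with 5.79 according to the authors' deposited table (FDR = 0.210). *BTN3A3* had none near an end, and 1 set 1 region inside with a fold change of 4.13 according to the authors' deposited table.

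The phosphate and organic anion transporter genes *SLC17A1* to *SLC17A4* had no member within 3000 bp of an end. The 165 kb that they span held 1 member, a set 2 region inside *SLC17A3* at 17986801 to 17987000 with a fold change of 3.83 according to the authors' deposited table (FDR = 0.369). Before them, *CARMIL1*, which encodes a regulator of actin capping protein, held 8 members over 308 kb, 5 of set 1 and 3 of set 2, and none had an FDR under 0.05. In *SCGN*, the gene of the calcium-binding protein secretagogin, a set 1 region at 17755701 to 17756200 had 2.40 according to the authors' deposited table (FDR = 0.000147), the only member with an FDR under 0.05 from 17 to 18 Mb.

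Many zinc finger genes encode DNA-binding repressors. Of 14 named ones in the stretch, 3 had a member within 3000 bp of an end, which is 21.4%, against 36.3% of all protein-coding genes, and 2 had one with an FDR under 0.05, the same share as the 14.3% of all protein-coding genes. These are *ZNF391*, given above, and *ZNF184*, with a set 1 region inside the gene at 18784901 to 18785300 and a fold change of 1.96 according to the authors' deposited table (FDR = 0.00733). Both lie in the block from 18 to 19 Mb. The third, *ZNF311*, had a set 1 region with 1.84 according to the authors' deposited table (FDR = 0.206). From *ZNF165* to *ZSCAN23*, 280 kb with 14 protein-coding genes, there were 3 members, none with an FDR under 0.05, and no named gene had a member within 3000 bp of an end.

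TRIM genes encode RING finger proteins, many of them ubiquitin ligases with roles in innate immunity. Of 7 in the stretch, 5 had a passing set 1 member within 3000 bp of an end, against 14.3% of all protein-coding genes with a passing region. These 5 lie side by side in 109 kb, which held 7 members, 3 of them passing; the *TRIM26* regions lie just beyond it. *TRIM31* had a region at 21194601 to 21194900 with a fold change of 1.72 according to the authors' deposited table (FDR = 0.00294). *TRIM15* and *TRIM10* share 1 region at 21258001 to 21258300, with 1.95 according to the authors' deposited table (FDR = 0.00570). *TRIM40* had 3.00 according to the authors' deposited table (FDR = 0.0280), and *TRIM26* had 1.59 (FDR = 0.0327) for the nearer of 2 passing regions. The other, at 21303301 to 21303500, had 5.14 according to the authors' deposited table (FDR = 0.0173). *TRIM38* and *TRIM27*, which lie apart from them, had no member within 3000 bp.

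The block from 21.1 to 22 Mb holds genes that in human lie between or next to the class I genes of the MHC. Of 25 such genes named in the stretch, counting *GABBR1* just before the block, 18 had a member within 3000 bp of an end. That is 72.0%, against 36.3% of all protein-coding genes. Of the 25, 9 had one with an FDR under 0.05, against 14.3% of all protein-coding genes. The 25 genes are named here after their values were seen, since no MHC gene itself is named. From *RPP21* to *MUC21*, 355 kb, there were 51 members, 49 of set 1 and 2 of set 2, and 16 of 19 named genes had a member near an end. Of the 51 members, 14 had an FDR under 0.05, close to the 27.8% of all listed regions. Among set 1 regions of the whole table, the set of nearly all of these members, that share was higher, 34.2%. Their widths were modest. Over the whole block of 0.9 Mb the median was 200 bp, against 400 bp from 18 to 19 Mb, and 31.6% of the 79 members had an FDR under 0.05, against 61.5% of the 109.

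Several neighbouring genes of the block share a member. *FLOT1*, the gene of the membrane raft protein flotillin, and *IER3*, an early response gene that acts on cell survival, share a region at 21703901 to 21704600 with a fold change of 1.68 according to the authors' deposited table (FDR = 0.00560). *FLOT1* held 4 members inside, of which 3 had an FDR under 0.05. *PPP1R18*, which encodes an actin-binding subunit of protein phosphatase 1, and *NRM*, the gene of a protein of the inner nuclear membrane, share 21666701 to 21667400 with 1.53 according to the authors' deposited table (FDR = 0.0117). Inside *PPP1R18*, a set 1 region of 800 bp at 21662001 to 21662800 had 1.85 according to the authors' deposited table (FDR = 0.000944). *GNL1* and *PRR3* share 21568601 to 21568800 with 2.40 according to the authors' deposited table (FDR = 0.0474), close to the limit. *DHX16*, the gene of a splicing helicase, shares the region at 21638801 to 21639200 with *ATAT1*, with 3.07 according to the authors' deposited table (FDR = 0.0302). That region lies 2660 bp from an end of *DHX16* and 1447 bp from an end of *ATAT1*.

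*PPP1R10*, which encodes a nuclear subunit of protein phosphatase 1, held 11 members within a gene of 16.5 kb, all in set 1. Their fold changes ran from 1.76 to 7.04 according to the authors' deposited table, with a median of 2.73, and 1 of the 11 had an FDR under 0.05, at 21612701 to 21613200 with 4.45 (FDR = 0.00653). A further passing region outside it, at 21598501 to 21598900, had 2.90 according to the authors' deposited table (FDR = 0.0113). Next to it, *MRPS18B*, a gene of the mitochondrial ribosome, had the second highest fold change of the stretch, 7.42 according to the authors' deposited table, in a region of 200 bp that did not pass (FDR = 0.126). In *DDR1*, the gene of a collagen receptor of epithelial cells, a set 1 region 4096 bp from an end, at 21805401 to 21806000, had 1.63 according to the authors' deposited table (FDR = 0.000160). Between *IER3* and *DDR1*, 94.8 kb with no protein-coding gene in the table held 8 set 1 members, 2 of them with an FDR under 0.05.

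At the remaining genes of this interval with a member within 3000 bp of an end, no such member passed. *TUBB*, a beta-tubulin gene, had 2.12 according to the authors' deposited table (FDR = 0.0971). The member nearest to an end of *MDC1*, a gene of the DNA damage response, lies inside *TUBB* and had 1.58 (FDR = 0.257). Another, inside *MDC1*, had 2.01 according to the authors' deposited table (FDR = 0.211). *MOG*, a gene of myelin, had 2.73 near an end (FDR = 0.0781). Farther from its ends, a set 1 region inside *MOG* at 21119301 to 21119700 did pass, with 1.65 according to the authors' deposited table (FDR = 0.0220). *GTF2H4* and *VARS2* share a region with 1.57 according to the authors' deposited table (FDR = 0.135). *GABBR1*, *ZFP57*, *ZNRD1*, *PPP1R11*, *RPP21*, *DDR1* and *SFTA2* had no member within 3000 bp of an end.

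**Figure D5:**
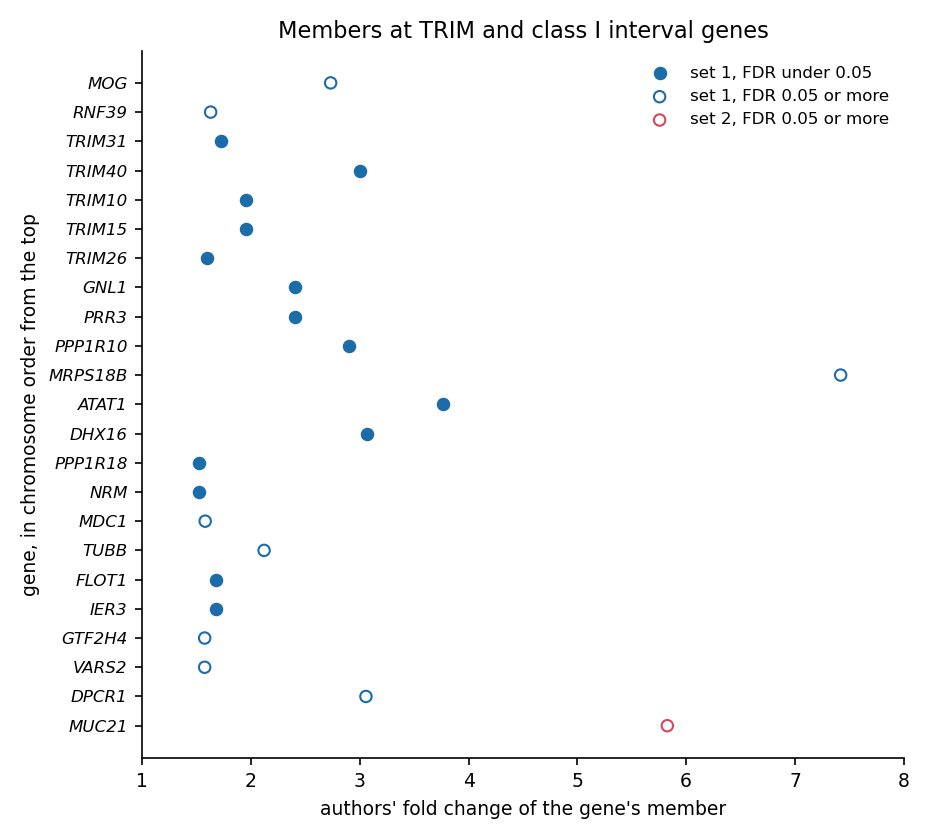
Authors' fold change of the nearest member within 3000 bp of an end (the nearest passing one where there is one) at the TRIM and class I interval genes, in chromosome order, with set 1 in blue, set 2 in red, and open points for an FDR of 0.05 or more. Fold changes of filled points lie between 1.53 and 3.76, and the 2 highest, *MRPS18B* at 7.42 and *MUC21* at 5.83, are open.

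The 11 set 2 members were scattered, and 2 had an FDR under 0.05. One lies inside *LOC102189637* in the class I interval, at 21524701 to 21525100, with a fold change of 3.67 according to the authors' deposited table (p = 2.45e-07, FDR = 0.00568). The other, at 20594001 to 20594700, lies 592 bp from an end of *LOC102190122* in the sparse interval, with 1.67 according to the authors' deposited table (p = 3.76e-06, FDR = 0.0387). It is the member at the only gene from 900 to under 1200 bp with one from 19 to 21.1 Mb. The other 9 include 3 inside *CARMIL1*, 1 inside *ZKSCAN8*, 1 in *GNL1* and 1 in *MUC21*, a gene of a membrane mucin, where the fold change was 5.83 according to the authors' deposited table (FDR = 0.692). Set 2 members had a median fold change of 3.61 according to the authors' deposited table, near the 3.59 of the other set 2 regions of the table.

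Regions next to the bounds of the rule were unremarkable. The first member, at 17007201 to 17007400, had a fold change of 2.92 according to the authors' deposited table (FDR = 0.187), and the last region before it, at 16939901 to 16940400, had 1.62 (FDR = 0.0470). The last member, at 21898701 to 21899700, had 1.85 according to the authors' deposited table (FDR = 0.0108), and the first region beyond, at 22027001 to 22027400, had 1.78 (FDR = 0.0778). At the tRNA limit the nearest member was the *BTN1A1* region, and the farthest region left out, 970 bp from a tRNA gene end at 18835101 to 18835400, had 1.69 according to the authors' deposited table (FDR = 0.0514). All of these are in set 1. The member with the largest p had p = 0.000978 according to the authors' deposited table, just under the limit of 0.001 that every listed region meets. At the FDR limit, 18212601 to 18212900 had an FDR of 0.0496 according to the authors' deposited table and 21609601 to 21610100 an FDR of 0.0537.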

How the data were processed

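Per the labels' protocols, Tn5 from a Nextera kit was used, and a BGISEQ-500 read the libraries. Bowtie2 2.2.5 and MACS2 are named, with no role, per the submitters' processing notes. Not given in the sources used here are the genome build, the program that compared the groups, and how Tn5 shifts, duplicates and multiply matching reads were treated. The table that the authors deposited gives each region's width in bp (another unit), a signal score (not used), a linear fold change (a ratio), a p-value and an FDR (a q-value). It holds no value per library.

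Distances run from a region's centre to the nearer end of a gene in the RefSeq gene table of ARS1.2, which gives no strand and whose coordinates are not printed. Positions of regions are the authors', on chromosome 23, counted from 1. As a check of the build, 28.3% of 325 regions of the stretch lay within 1000 bp of a protein-coding gene end, against 11.4% and 13.8% after a shift of 100 kb either way. On all of chromosome 23 the share was 18.8%, against at most 5.76% with the genes of any other chromosome. A region was near a gene within 3000 bp. The code was tested on simulated positions and run with Python 3.11.15, pandas 2.3.3 and scipy 1.17.1.

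Members and gene lists were chosen with earlier results of these data known. Genes were named when a passing region lay near a listed family's gene, when a region was among the 10 with the smallest p or was a passing set 2 region, or at the bounds of the rule. Others were named after their values were seen. Planned lists of histone, MHC, olfactory receptor, antigen processing and class III genes had no named gene in the stretch. The planned promoter motifs were not analysed here, since no sequence was used. Library depth and precision are unknown.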

Additional observations from a re-analysis of the deposited data

How the results depend on the processing

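Of 52 alternative values computed for 9 results, 39 stayed within the interval of the main value or within 1.5 times the main count. With regions at tRNA genes kept, members with an FDR under 0.05 numbered 156 in place of 97, the share near a protein-coding gene end was 43.4% in place of 61.3%, and the fullest 1 Mb held 186 regions in place of 109. Each follows from adding the regions at tRNA genes. With only members under an FDR of 0.05, the set 1 share was 97.9%, the median width 500 bp, the share near a gene end 75.3%, the fullest 1 Mb held 67 members, and 9 in place of 18 class I interval genes had one. At an FDR under 0.01, 50 members passed. With a fold change of at least 2, the median fold change was 2.89, which that filter sets. The share near a gene end was 68.2% with the stretch narrowed by 500000 bp on each side, 41.9% within 1000 bp and 84.3% within 10000 bp. The count of genes under 900 bp with a member ran from 22 of 27 (genes under 600 bp) to 34 of 107 (genes under 1200 bp); these length limits, and all alternatives for the short genes, the class I interval and the fullest 1 Mb, were chosen after seeing the data. Leaving out single libraries was not run, and depth limits cannot be given, because the table holds no value per library. No paired analysis was possible because the table holds no value per library.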
